A study of Mus musculus with 27 samples.

Results

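The 33 genes of the citric acid cycle and of pyruvate entry into it were followed through 27 mouse hearts. They were chosen by symbol from a table of 57683 features, and all 33 symbols were found there. Cycle enzymes account for 20 of them, and 17 of these 20 encode mitochondrial proteins while Aco1, Idh1 and Mdh1 encode cytosolic forms. Another 11 encode the pyruvate dehydrogenase complex (Pdha1, Pdha2, Pdhb, Dlat and Pdhx), its kinases (Pdk1 to Pdk4) and its phosphatases (Pdp1 and Pdp2). Pyruvate carboxylase (Pcx) and cytosolic malic enzyme (Me1) complete the set. Dld, a subunit shared by the pyruvate and 2-oxoglutarate dehydrogenase complexes, was counted with the cycle.

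The pyruvate dehydrogenase complex converts pyruvate from glycolysis to acetyl-CoA in the mitochondrial matrix, and the cycle oxidises the acetyl group and passes electrons to the respiratory chain. Kinases of the Pdk family phosphorylate and switch off the complex, and the Pdp phosphatases switch it on again. Adult heart muscle is densely filled with mitochondria and burns mainly fatty acids, whereas the embryonic heart relies more on glycolysis.

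All hearts came from C57BL/6J mice that carried no transgene or induced mutation according to the labels. The embryonic group holds 7 whole hearts titled E13.5. The age field of their labels counts upward from 1 embryo to the next, starting at that stage, and the titles were followed. The adult groups hold apexes of the ventricles, from 6 unoperated mice of 6 weeks, 6 unoperated mice of 16 weeks, 4 sham-operated mice of 12 weeks and 4 mice of 12 weeks after 4 weeks of transverse aortic constriction (TAC), in which a band on the aorta loads the left ventricle with pressure. Polyadenylated RNA was sequenced as single-end reads without strand information, and the deposited values are read counts per feature. The adult mice are labelled male except for 1 TAC mouse labelled female, and the sex of the embryos is given as unknown. Embryos and adults therefore differ in the tissue taken as well as in age, and these cannot be told apart.

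Total counts ran from 7543375 to 12646039 in the embryonic libraries and from 7958592 to 11846819 in sham and TAC libraries, but only from 2092270 to 2682955 in the unoperated adult ones. The unoperated adult libraries are also the only ones whose labels give an older base quality encoding (phred64). Y-linked counts went against the labelled sex in 8 libraries. These are replicates 1 and 6 at both unoperated ages, sham replicates 2 and 3, TAC replicate 3 and the female-labelled TAC mouse. Mitochondrially encoded transcripts took 0.227 to 0.725% of counts in embryos, 0.488 to 2.74% in unoperated adults, 1.77 to 6.44% in sham and 1.35 to 1.95% in TAC hearts. Pairs of libraries of 1 group differed by more than sampling noise, with a chi-square per feature of 2.42 to 30.3, so none was counted as a repeat of another. The labels do not name litters or surgery days.

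Levels are given as counts scaled to library size (CPM), after normalisation by the trimmed mean of M-values (TMM) over all libraries. Levels of different genes are set against each other as CPM per kb of exon that no other annotated feature overlaps (own exon). That measure takes reads in overlapped exon as not counted, and the counting mode was not stated. For some genes CPM per kb over all exonic bases is given as well. A gene is called where edgeR's quasi-likelihood test over all features gave a Benjamini-Hochberg adjusted p under 0.05. Fold changes are log2 values with their standard error.

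In the authors' mm9 annotation, Pdk2 (ENSMUSG00000038967) lies at chr11:94887572-94902668 and Pdk4 (ENSMUSG00000019577) at chr6:5433351-5446309. Pdk3 (ENSMUSG00000035232) lies at chrX:91009946-91077540, on the same chromosome as Pdha1 (ENSMUSG00000031299, chrX:156560141-156576345). The phosphatase gene Pdp1 (ENSMUSG00000049225) lies at chr4:11885331-11893599.

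The promoters of 3 kinases are shown because Pdk3 moved in the opposite direction from Pdk2 and Pdk4 between embryo and adult. The direction of Pdk3 was fixed by the count filter, as described below. Each is the 250 bases before a RefSeq start in the build GRCm38.p6, read 5′ to 3′ on the gene's strand. The table holds 2 starts for Pdk2, and the window of the upstream one is shown. None of the 3 holds the motifs searched here, so no letters are in capitals. They lie at chr11:95041372-95041621 on the minus strand for Pdk2, chrX:93832151-93832400 on the minus strand for Pdk3 and chr6:5496279-5496528 on the minus strand for Pdk4.
Pdk2: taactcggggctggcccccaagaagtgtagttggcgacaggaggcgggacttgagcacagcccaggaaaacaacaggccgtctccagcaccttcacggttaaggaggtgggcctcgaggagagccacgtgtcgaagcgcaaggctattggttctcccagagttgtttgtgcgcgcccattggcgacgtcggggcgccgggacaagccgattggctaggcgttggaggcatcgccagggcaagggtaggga
Pdk3: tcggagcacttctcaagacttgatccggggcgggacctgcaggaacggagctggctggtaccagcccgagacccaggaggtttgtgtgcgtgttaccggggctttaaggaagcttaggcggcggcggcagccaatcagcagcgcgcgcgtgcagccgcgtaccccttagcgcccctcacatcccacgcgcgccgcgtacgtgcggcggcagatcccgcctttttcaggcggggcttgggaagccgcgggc
Pdk4: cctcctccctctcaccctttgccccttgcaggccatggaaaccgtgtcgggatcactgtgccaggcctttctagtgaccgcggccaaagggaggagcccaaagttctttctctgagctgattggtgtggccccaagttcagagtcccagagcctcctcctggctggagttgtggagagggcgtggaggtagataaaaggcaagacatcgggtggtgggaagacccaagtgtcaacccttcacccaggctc
The Pdk3 window was 67.6% G and C, against 62.4% for the Pdk2 window shown, 58.8% for the window of the other Pdk2 start (chr11:95040876-95041125) and 58.8% for Pdk4. For Pdk1, whose windows are not printed, the values were 64% (chr2:71872974-71873223) and 38.4% (chr2:71874654-71874903).

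Another search was for 3 motifs, on both strands in RefSeq windows from 250 bases before to 50 bases after each start. RefSeq entries were matched for 30 of the 33 genes. The letters CCGGAAG, a core bound by ETS factors, were found for 5 of the 30 (16.7%), which were Idh3b, Idh3g, Dlst, Sdhb and Sdhd, against 9.93% of 27025 genes. The NRF1 core CGCATGCG was found for Ogdh alone (3.33%), against 2.07% of genes. The extended half-site of oestrogen-related receptors, TNAAGGTCA, was found for Sdhd alone (3.33%), against 1.43% of genes. The matches that lie wholly before the start are printed below in capitals, within the bases around them. They are at chrX:73786975-73787021 on the minus strand for Idh3g, chr9:50603869-50603915 on the minus strand for Sdhd and chr11:6292524-6292557 on the plus strand for Ogdh, again in GRCm38.p6.
Idh3g: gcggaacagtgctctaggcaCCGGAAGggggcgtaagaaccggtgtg
Sdhd: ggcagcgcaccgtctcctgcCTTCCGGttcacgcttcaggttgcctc
Ogdh: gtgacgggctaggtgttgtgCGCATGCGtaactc
The Sdhd match is the ETS core read on the other strand. No binding was measured in these hearts, and a match in letters is not evidence of a bound site.

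Embryonic hearts held less transcript of nearly the whole pathway than unoperated adult hearts. Of the 33 genes, 32 were called lower at E13.5 and 1, Pdk3, was called higher. Pdk3 passed the count filter only through the embryos and Pdha2 only through the unoperated adults, so their direction was fixed by the filter. The other 31 were all called lower, with a median log2 fold change of -1.97. Over all 12766 features tested, 83.8% were called, 44.1% higher and 39.7% lower, with a median of 0.07. In 29 of these 31 genes all embryonic values lay below all adult ones, against 26.4% of all features wholly lower and 28.1% wholly higher. The exceptions were Idh1 and Sdha, which were called lower with overlapping values. A lower level in whole tissue can reflect fewer cells of a type or less RNA per cell, and these cannot be told apart here.

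**Figure D1:**
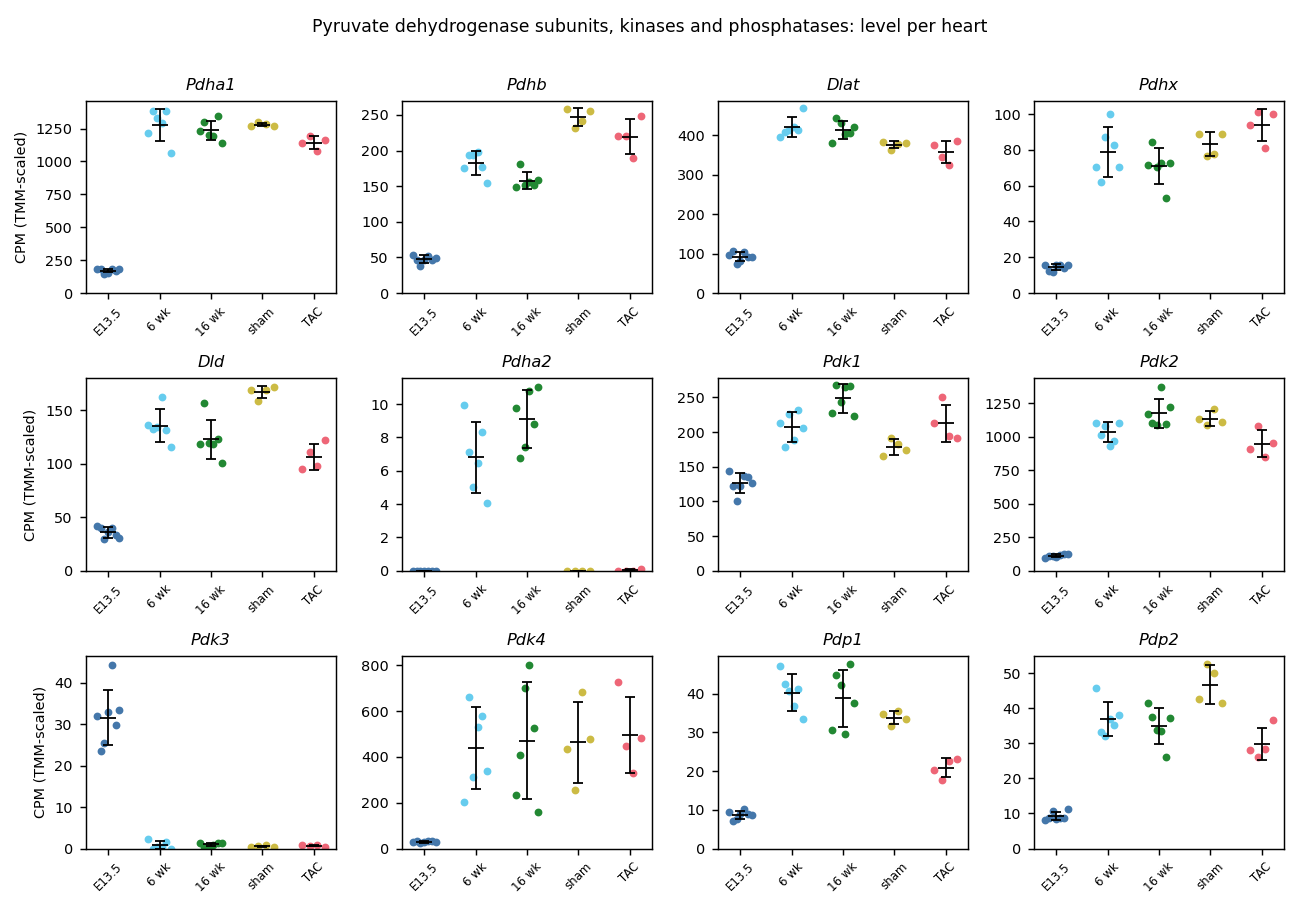
Level of each pyruvate dehydrogenase gene (TMM-scaled CPM, y axis from 0) in each heart of the 5 groups; points are hearts, and the black bar is the mean with its SD. The embryonic points lie below the adult ones in all panels except Pdk3, where they lie above, and Pdha2, where only the unoperated adults hold counts.

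Among the subunits of the complex, Pdha1 carries the alpha chain of the decarboxylating component, which is the chain the kinases phosphorylate. Its level at E13.5 ran from 148 CPM through a median of 180 to 184, against 1066 to 1386 (median 1309) at 6 weeks and 1138 to 1342 (median 1218) at 16 weeks. All embryos were below all adults, by a log2 fold change of -2.87 ± 0.07 (edgeR quasi-likelihood, adjusted p = 7.02e-26). Pdhb, the partner beta chain, fell by 1.83 ± 0.07. Dlat, the acetyltransferase core, fell by 2.18 ± 0.07. Pdhx, which anchors Dld to the core, fell by 2.37 ± 0.10. None of these 3 genes overlapped between embryos and adults either.

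The 4 kinases did not move as a block. Pdk2, the main kinase transcript of adult heart in these libraries, had 96.1 to 123 CPM (median 112) at E13.5, against 928 to 1106 (median 1044) at 6 weeks and 1085 to 1373 (median 1137) at 16 weeks. It was lower in every embryo, by -3.29 ± 0.07. Pdk4, which is induced by fasting and fatty acids in adult muscle, had 23.7 to 32.9 CPM (median 29.8) at E13.5, against 203 to 663 (median 435) at 6 weeks and 160 to 801 (median 466) at 16 weeks. Its log2 fold change was -3.94 ± 0.35, with the lowest adult still well above the highest embryo. Pdk1, a kinase known as a target of hypoxia signalling, had 101 to 144 CPM (median 126) at E13.5, against 178 to 232 (median 209) and 223 to 268 (median 254) in the adults. It was also lower in all embryos, but only by -0.84 ± 0.07.

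Pdk3 was the single gene of the set above the adults. It had 23.6 to 44.2 CPM (median 31.9) at E13.5, against 0 to 2.38 (median 0.459) at 6 weeks and 0.483 to 1.39 (median 1.11) at 16 weeks. Behind these levels stood 290 to 567 reads in each embryo, against 0 to 6 reads in each unoperated adult. The fitted log2 difference was 5.05 ± 0.23, and against sham hearts, which match the embryos in encoding and depth, 5.86 ± 0.27. These sizes rest on adult groups of few reads, and no p is given for them. Sham libraries held 3 to 5 reads of Pdk3 and TAC libraries 4 to 7.

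The kinase transcripts therefore had another make-up in the embryo. Per kb of own exon, the 4 kinases summed to 78.8 ± 6.59 CPM per kb at E13.5 (SD, n = 7) and to 488 ± 33.2 and 551 ± 89.0 at 6 and 16 weeks (SD, n = 6 each). Pdk2 took 45.2 ± 3.36% of the embryonic sum, Pdk1 28.6 ± 2.37%, Pdk3 15.6 ± 2.33% and Pdk4 10.7 ± 0.69%. The Pdk1 share is lower over all exonic bases, where embryonic Pdk1 stood at 16.3 CPM per kb in place of 22.5. At 6 weeks Pdk2 took 67.2 ± 8.17%, Pdk4 25.1 ± 8.95%, Pdk1 7.60 ± 1.02% and Pdk3 0.0684 ± 0.0826%. The shares at 16 weeks, in sham and in TAC hearts were near those of 6 weeks, with Pdk2 at 68.5, 69.2 and 63.0% and Pdk4 at 23.3, 24.6 and 29.0%. The log2 ratio of Pdk4 to Pdk2 differed by -0.49 between embryos and adults, which an exact permutation test did not call (2-sided p = 0.129, adjusted p = 0.243 over 15 ratio tests).

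**Figure D2:**
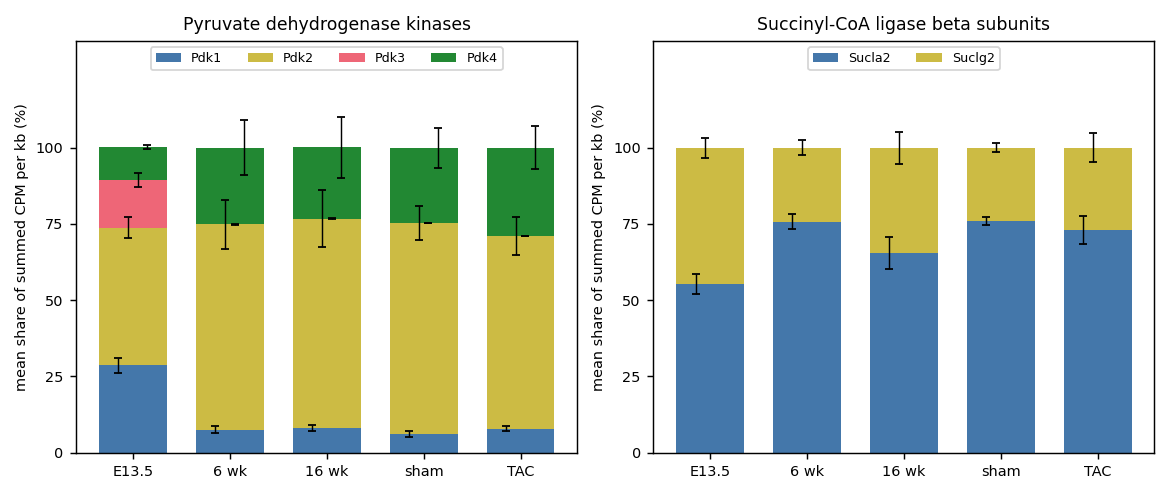
Mean share (%) of each gene in the summed CPM per kb of the 4 pyruvate dehydrogenase kinases (left) and of the beta subunits of succinyl-CoA ligase (right) in the 5 groups; the thin black bars are the SD of each share over hearts. Pdk1 and Pdk3 took 28.6% and 15.6% of the kinase sum at E13.5, and Sucla2 took 55.2% of the beta subunits at E13.5 against 75.7% at 6 weeks. Shares are per kb of own exon. Over all exonic bases, embryonic Sucla2 (9.62 CPM per kb) stood below Suclg2 (10.7).

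Both phosphatases, which reverse the kinases' action, were lower in embryos than in adults. Pdp1 had 7.08 to 10.3 CPM (median 8.80) at E13.5, against 33.4 to 47.2 (median 40.9) at 6 weeks and 29.7 to 47.7 (median 39.9) at 16 weeks, a log2 fold change of -2.18 ± 0.10. Pdp2 changed by -1.95 ± 0.10. The ratio of Pdp1 to Pdp2 differed by -0.23, which the exact permutation test did not call (2-sided p = 0.157, adjusted p = 0.261).

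Pdha2, an intronless relative of Pdha1 known from testis, gave counts in the unoperated adults alone. None of the 7 embryonic and 4 sham libraries held a read of it and the TAC libraries held 1 in all, whereas each of the 12 unoperated adult libraries held 8 to 26, 215 together. With a floor of 3 counts over each group, the level was at least 258-fold lower in embryos and at least 91.1-fold lower in sham hearts than in unoperated adults. Sham and unoperated hearts are both adult, so this difference did not follow developmental stage. It followed the depth and the base quality encoding of the libraries, whose part in it was not tested. Testis markers (Prm1, Prm2, Tnp1, Ldhc, Pgk2 and Acrv1) summed to at most 0.472 CPM in any unoperated adult. In GENCODE transcripts, Pdha2 matched Pdha1 in 77.2% of 1169 aligned bases, and the longest stretch they share is this run of 20 bases, shown because reads longer than it cannot match both exactly.
Shared by Pdha1 and Pdha2: caggaagcctgctgcgtggg

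All 20 cycle enzymes were called lower at E13.5, with a median of -1.95. The 17 mitochondrial ones ranged from -3.24 to -1.40 with a median of -1.97. Ogdh, the decarboxylating component of the 2-oxoglutarate dehydrogenase complex, fell most among them. It had 490 to 604 CPM (median 582) in embryos, against 4819 to 5283 (median 5056) at 6 weeks and 5078 to 6173 (median 5418) at 16 weeks. The groups lay far apart, with a log2 fold change of -3.24 ± 0.06 (edgeR quasi-likelihood, adjusted p = 3.65e-28). Its partners in the same complex, Dlst and Dld, changed by only -1.79 ± 0.06 and -1.85 ± 0.09.

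Cs, citrate synthase, which opens the cycle, had 430 to 550 CPM (median 499) in embryos, against 2214 to 2679 (median 2520) at 6 weeks and 2166 to 2310 (median 2248) at 16 weeks. It was lower in every embryo, by -2.26 ± 0.06. The subunits of NAD-dependent isocitrate dehydrogenase, Idh3a, Idh3b and Idh3g, changed by -1.97 ± 0.07, -2.53 ± 0.06 and -1.97 ± 0.06. Idh2, the mitochondrial NADP-dependent enzyme, changed by -1.64 ± 0.06. Of succinate dehydrogenase, which is also complex II of the respiratory chain, Sdhb, Sdhc and Sdhd changed by -2.43 ± 0.06, -1.93 ± 0.06 and -1.86 ± 0.07. Fumarase (Fh1) changed by -1.81 ± 0.07 and mitochondrial malate dehydrogenase (Mdh2) by -2.08 ± 0.06.

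Sdha, the flavoprotein of succinate dehydrogenase, could be read only in part. The annotation gives it 1584 exonic bases of its own, 40.8% of the gene, and a NONCODE transcript on the same strand overlaps 59.2%. That transcript has 9 bases of its own and almost no counts. Sdha was listed at 1.33 to 3.03 CPM at E13.5, 6.23 to 8.32 at 6 weeks and 0.943 to 15.4 at 16 weeks, so the groups overlapped through 1 heart of 16 weeks. Its change of -1.78 ± 0.24 rests on these few reads. HTSeq's usual modes count reads from exons of 2 features for neither, and the mode used here was not stated.

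The cytosolic enzymes differed among themselves. Mdh1, which feeds reducing equivalents to the malate-aspartate shuttle, changed by -2.45 ± 0.07, as much as the mitochondrial enzymes. Aco1, a cytosolic aconitase that doubles as an iron-responsive RNA-binding protein, had 50.8 to 55.4 CPM (median 52.8) in embryos, against 58.3 to 78.9 (median 69.4) and 56.0 to 76.9 (median 65.5) in the adults. Its embryos lay just below its adults, at -0.34 ± 0.06. Idh1 had 22.9 to 29.3 CPM (median 27.8) in embryos, against at least 34.9 (median 46.2) at 6 weeks and 29.1 to 43.4 (median 31.6) at 16 weeks. It overlapped the older adults only, at -0.50 ± 0.09. With library totals in place of TMM, an alternative added after the data were seen that raises the median of all features by 0.64, Aco1 was higher at E13.5 (0.29 ± 0.06, adjusted p = 6.73e-05 by edgeR) and Idh1 was at 0.14 ± 0.09. The direction of these 2 genes thus depends on the scaling. With library totals 2 of the 33 genes were called higher and 30 lower, and 73.6% of all calls were higher against 52.6% with TMM.

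Ratios within a library do not depend on that scaling. The log2 ratio of Idh2 to Idh1 was 5.04 ± 0.23 at E13.5 and 6.19 ± 0.49 in unoperated adults (SD, n = 7 and 12), with no overlap. The difference of -1.15 reached the smallest p this exact permutation test can give (3.97e-05, adjusted p = 2.98e-04). In sham hearts the ratio was 5.63 ± 0.15 (SD, n = 4), between that of the embryos and that of the unoperated adults. Taken apart, the hearts of 6 and 16 weeks stood at 5.80 ± 0.29 and 6.58 ± 0.28 (SD, n = 6 each). The ratio of Mdh2 to Mdh1 was higher in embryos than in unoperated adults by 0.38, again without overlap and at the smallest p (exact permutation test, 3.97e-05, adjusted p = 2.98e-04). It was 0.03 ± 0.10 in embryos and 0.02 ± 0.07 in sham hearts against -0.35 ± 0.07 in unoperated adults, so the embryonic mean lay within the spread of the depth-matched adults. Ratios against sham were not tested. Among the beta subunits of succinyl-CoA ligase, Sucla2 makes the ATP-forming enzyme and Suclg2 the GTP-forming one. Their log2 ratio was lower in embryos than in unoperated adults by 0.98, with overlapping values (exact permutation test, 2-sided p = 7.94e-05, adjusted p = 3.97e-04). It was 0.68 ± 0.19 in embryos and 2.05 ± 0.11 in sham hearts. Sucla2 itself changed by -2.40 ± 0.15, Suclg2 by -1.40 ± 0.09 and their common alpha subunit Suclg1 by -2.06 ± 0.06.

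Pyruvate carboxylase and cytosolic malic enzyme were lower too. Pcx, which makes oxaloacetate from pyruvate, had 21.3 to 32.7 CPM (median 28.9) in embryos, against 37.8 to 94.7 (median 60.8) at 6 weeks and 60.9 to 107 (median 80.9) at 16 weeks. It did not overlap and changed by -1.35 ± 0.13. Me1, which turns malate into pyruvate and yields NADPH, changed by -2.16 ± 0.09.

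**Figure D3:**
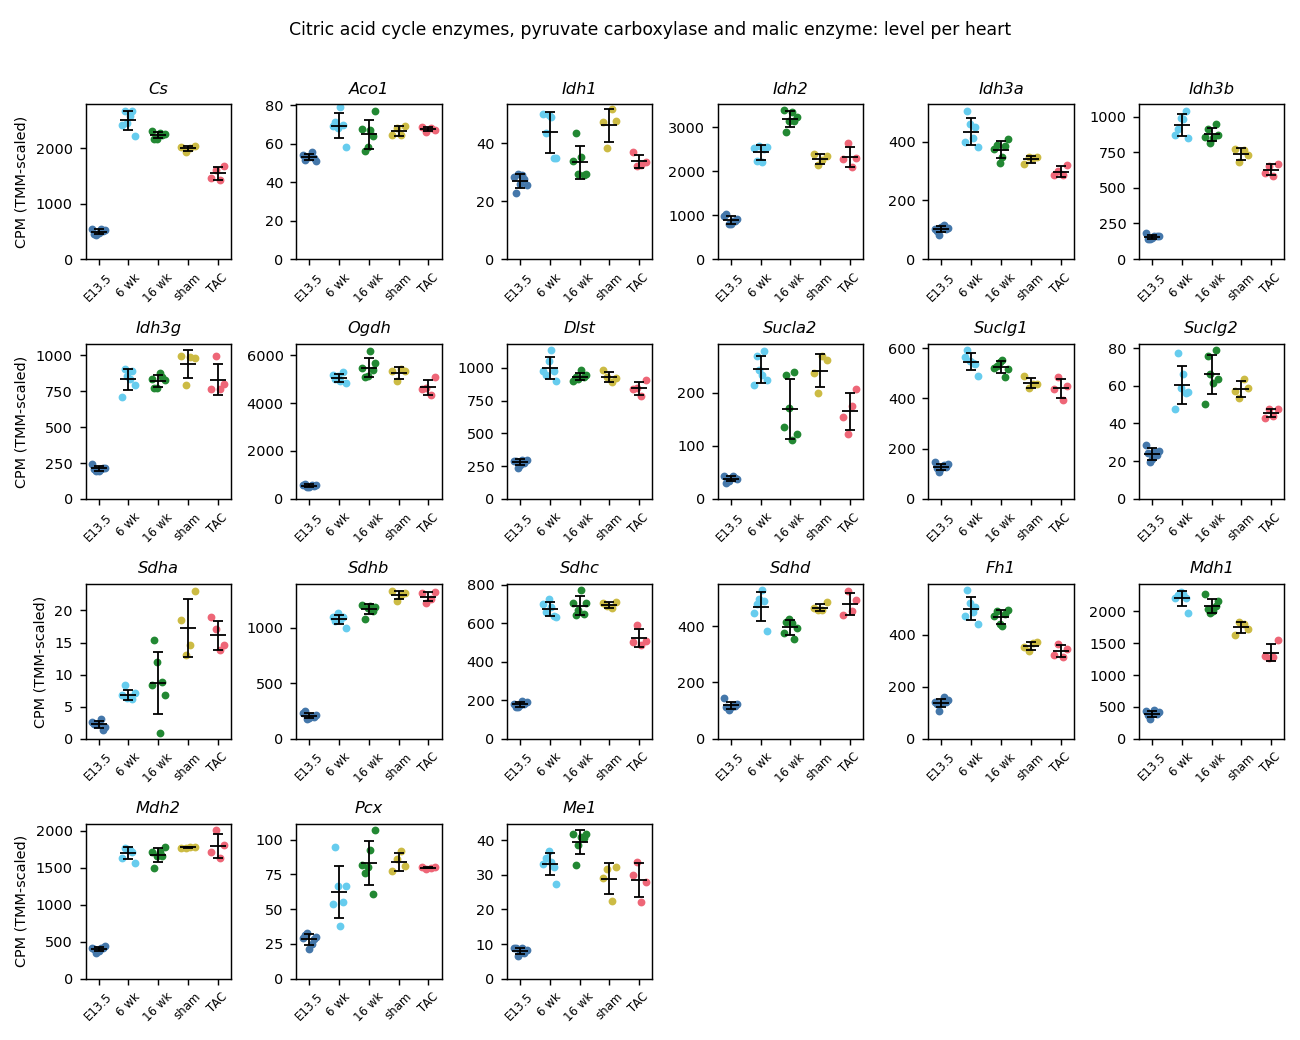
Level of each cycle enzyme, Pcx and Me1 (TMM-scaled CPM, y axis from 0) in each heart of the 5 groups; points are hearts, and the black bar is the mean with its SD. Embryonic points lie far below the adult ones for most genes and close to them for Aco1 and Idh1, and the 16-week points of Sucla2 spread from 111 to 240 CPM.

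Set against the sham hearts, with which the embryos share depth and encoding, 31 of the 32 genes tested were lower and Pdha2 was not tested. The 1 higher gene was Pdk3, which again passed the count filter only through the embryos, so its direction was fixed. All features gave 40.7% higher and 35.6% lower there. The 2 comparisons share the embryonic libraries. Ogdh changed by -3.33 ± 0.07 and Pdk2 by -3.43 ± 0.07 against sham, close to their values against unoperated adults. Sdha changed by -3.04 ± 0.19 in place of -1.78.

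Genes from a longer list of pyruvate and cycle metabolism, 25 of whose symbols are in the table, showed which neighbours of the pathway shared the embryonic pattern. Of 19 tested, 14 were lower and 4 higher at E13.5. Mitochondrial malic enzyme Me3 had the largest change (-4.99 ± 0.10). The mitochondrial pyruvate carrier, whose subunits Mpc1 and Mpc2 are listed as Brp44l and Brp44, was at -3.83 ± 0.11 and -3.14 ± 0.09. Got1, of the malate-aspartate shuttle, changed by -3.34 ± 0.07, and Ldhb, the lactate dehydrogenase chain of oxidative muscle, by -2.53 ± 0.07. Higher were Acly (1.27 ± 0.06), which splits exported citrate for lipid synthesis, Me2 (1.07 ± 0.10), Pck2 (1.06 ± 0.10) and Ldha (0.28 ± 0.06).

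Cell type markers moved at the same time. All 10 cardiomyocyte markers were lower at E13.5, with a median of -2.35, and summed to 23028 to 30797 CPM against 115833 to 140706 in unoperated adults. Atrial markers (Myl7, Myl4, Sln, Bmp10 and Nppa) summed to 2484 to 3301 CPM in the whole embryonic hearts against 122 to 1428 in the unoperated adult apexes. Erythroid markers summed to 12593 to 46213 CPM in embryos against 117 to 504, with 5 of 5 tested higher. Their part in the lower levels of the pathway was not tested.

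**Figure D4:**
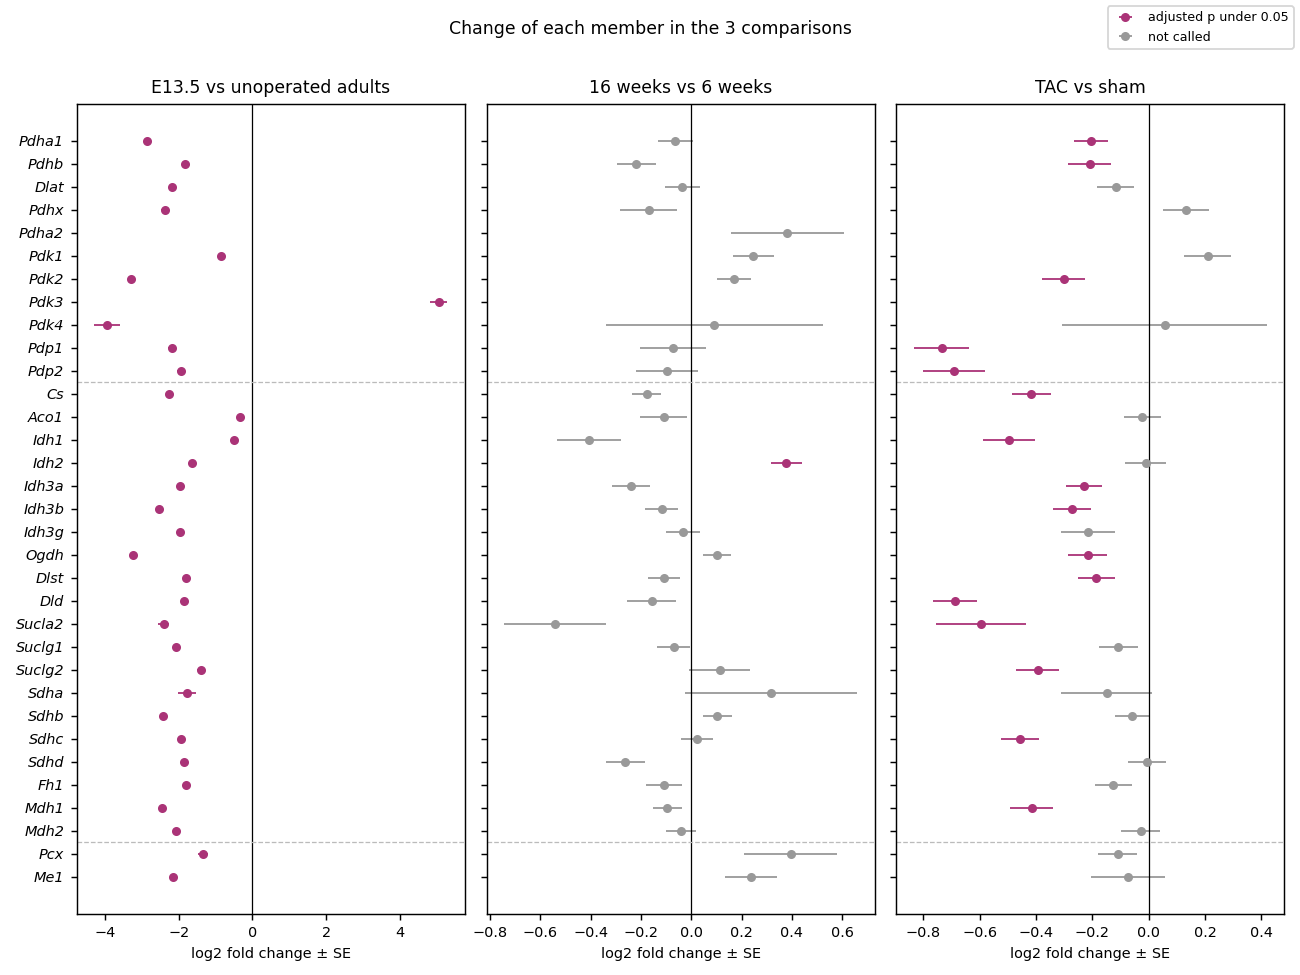
Log2 fold change with its standard error (x axis, note the wider scale on the left) for each gene in the 3 comparisons; purple points were called at an adjusted p under 0.05 and grey ones were not, and dashed lines part the pyruvate dehydrogenase genes, the cycle enzymes, and Pcx with Me1. Pdk3 at 5.05 is the single point right of 0 in the embryonic comparison. The count filter fixed its direction, so its colour there is not to be read as a test result. Pdha2 is left out there because the embryos held no count of it.

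Between 6 and 16 weeks of age the pathway showed 1 called gene. Idh2, which supplies mitochondrial NADPH, had 2205 to 2572 CPM (median 2515) at 6 weeks and 2888 to 3392 (median 3196) at 16 weeks. All 16-week hearts exceeded all 6-week hearts, and the gene rose by 0.38 ± 0.06 (edgeR quasi-likelihood, adjusted p = 0.00183). Of the 32 genes tested, 1 was called higher and none lower, with a median of -0.07. Over 10394 features, 2.51% were called, 1.32% higher and 1.19% lower, while 1.35% were wholly higher and 0.702% wholly lower. At an unadjusted p under 0.05, 9 further genes passed in edgeR. DESeq2 called Idh2 and, as lower, Cs (-0.18) and Sdhd (-0.26). Pdk3 was below the count filter.

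Sucla2 varied widely among the older hearts. Its 16-week levels in replicates 1 to 6 were 136, 234, 171, 111, 240 and 122 CPM, against 215 to 279 (median 239) at 6 weeks. The 3 lowest hearts at 16 weeks, replicates 1, 4 and 6, were also those with the lowest share of mitochondrially encoded counts, 0.488 to 0.658% against 1.70 to 2.74% in the other 3, and replicates 1 and 6 also go against their sex label. Replicates 1, 4 and 6 also had the highest Idh2 levels at 16 weeks, 3392, 3345 and 3240 CPM, against 2888 to 3151 in the others. The part of this share in the Sucla2 and Idh2 results was not tested. The edgeR test did not call Sucla2 (-0.54 ± 0.20, adjusted p = 0.206). Its ratio to Suclg2 was lower at 16 weeks by 0.72 on the log2 scale, with no overlap and at the smallest p that an exact permutation test of 6 against 6 allows (0.00216, adjusted p = 0.00812). The ratio of Idh2 to Idh1 was higher at 16 weeks by 0.78 with slight overlap (exact permutation test, 2-sided p = 0.00649, adjusted p = 0.0195). None of the 19 pathway neighbours tested was called in this comparison by edgeR.

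Part of the pathway was lower in pressure-overloaded hearts. Of 31 genes tested in TAC against sham hearts, 16 were called lower, none higher, and 15 were not called, with a median of -0.21. Over 14555 features, 38.0% were called, 19.6% higher and 18.4% lower, with a median of 4.67e-04. In 12 of the 31 genes the TAC values lay wholly below the sham values, against 14.3% of all features wholly lower and 21.4% wholly higher. Pdha2 and Pdk3 were below the count filter. The count of lower genes ran from 12 to 17 when 1 of the 8 hearts was left out.

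The largest changes were in the phosphatases. Pdp1 had 34.8, 31.6, 35.5 and 33.5 CPM in the sham hearts and 20.4, 17.7, 22.5 and 23.1 in the TAC hearts. The groups did not overlap, and the log2 fold change was -0.74 ± 0.10 (edgeR quasi-likelihood, adjusted p = 4.09e-05). Pdp2 had 42.6, 52.6, 50.1 and 41.4 CPM in sham and 28.0, 26.1, 28.3 and 36.5 in TAC. Every TAC heart was below every sham heart here too, at -0.69 ± 0.11 (adjusted p = 2.08e-04). The sum of both genes fell from 26.5 ± 2.14 to 16.8 ± 2.32 CPM per kb (SD, n = 4 each), while their ratio differed by -0.04 (exact permutation test, 2-sided p = 0.771). The NONCODE transcript n264496, which overlaps 19.7% of Pdp2, was lower as well on its own bases (-1.31, adjusted p = 4.84e-06 by edgeR).

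The kinases showed a mixed picture. Pdk2 had 1136, 1089, 1211 and 1110 CPM in sham and 908, 1082, 850 and 957 in TAC hearts, narrowly without overlap, at -0.30 ± 0.08 (edgeR quasi-likelihood, adjusted p = 0.00528). It was not called without the hearts that go against their sex label (-0.22 ± 0.09, adjusted p = 0.0678 by edgeR). That fit held only sham replicates 1 and 4 and TAC replicates 1 and 2. Pdk1 had 166, 192, 183 and 174 CPM in sham and 213, 250, 195 and 192 in TAC hearts, touching at 1 value. It was not called at 0.21 ± 0.08 (adjusted p = 0.0587 by edgeR). In the small fit without the hearts against their sex label it was called higher (0.40 ± 0.09, adjusted p = 0.00326 by edgeR). The same call was made in 3 of the 8 fits that left out 1 heart. These 3 left out sham replicate 2, TAC replicate 3 or the female-labelled TAC mouse, and the values over all 8 ran from 0.13 to 0.27.

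Pdk4 was not called and varied widely from heart to heart. It had 434, 256, 685 and 477 CPM in sham and 727, 446, 330 and 481 in TAC hearts, fully overlapping, at 0.06 ± 0.36 (edgeR quasi-likelihood, adjusted p = 0.92). Its coefficient of variation was 40.8% at 6 weeks, 53.9% at 16 weeks, 38.1% in sham and 33.7% in TAC hearts, but 10.8% in embryos. The median over the genes of the set was 9.59% at 6 weeks, 7.80% at 16 weeks, 9.01% in TAC hearts and 10.9% in embryos. Feeding state and hour of collection are not given in the labels.

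Of the complex itself, Pdha1 and Pdhb were called lower in TAC hearts by small steps. Pdha1 had 1272, 1298, 1281 and 1267 CPM in sham and 1141, 1191, 1077 and 1162 in TAC hearts, without overlap, at -0.21 ± 0.06 (edgeR quasi-likelihood, adjusted p = 0.0138). Without the hearts that go against their sex label it was not called (-0.17 ± 0.07, adjusted p = 0.0941 by edgeR). Only sham replicates 1 and 4 and TAC replicates 1 and 2 were left in that fit. Pdhb overlapped and stood at -0.21 ± 0.08 (adjusted p = 0.0401), and 6 of the 8 fits that left out 1 heart did not call it. These were the fits without sham replicate 1, 3 or 4 and without TAC replicate 1, 2 or 3, and the values over all 8 fits ran from -0.26 to -0.15. Dlat (-0.12 ± 0.07) and Pdhx (0.13 ± 0.08) were not called.

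Dld had the largest change among the cycle enzymes under pressure overload. It had 169, 159, 169 and 172 CPM in sham and 95.3, 111, 98.4 and 122 in TAC hearts. The lowest sham heart lay well above the highest TAC heart, and the log2 fold change was -0.69 ± 0.08 (edgeR quasi-likelihood, adjusted p = 8.97e-06). Its partners in the 2-oxoglutarate dehydrogenase complex moved less, Ogdh by -0.22 ± 0.07 and Dlst by -0.19 ± 0.06. Both overlapped between groups. Ogdh was not called in 4 of the 8 fits that left out 1 heart (sham replicate 1, 3 or 4 or TAC replicate 1), and Dlst in 5 (sham replicate 1 or 4 or TAC replicate 1, 2 or 3).

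The other cycle enzymes called lower came from several steps. Cs had 2020, 1940, 2011 and 2042 CPM in sham and 1461, 1615, 1421 and 1682 in TAC hearts, with a clear gap, at -0.42 ± 0.07 (edgeR quasi-likelihood, adjusted p = 2.24e-04). Sdhc, a membrane anchor of succinate dehydrogenase, had 707, 691, 677 and 708 CPM in sham and 505, 590, 486 and 506 in TAC hearts. It too was separated, at -0.46 ± 0.07 (adjusted p = 1.17e-04), while Sdhb, which carries the iron-sulphur clusters, and Sdhd, the second anchor, were at -0.06 ± 0.06 and -0.01 ± 0.07. Idh3a and Idh3b were lower by 0.23 ± 0.06 and 0.27 ± 0.07 without overlap, and Idh3g was not called (-0.22 ± 0.10, adjusted p = 0.0868).

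Sucla2 had 237, 200, 269 and 261 CPM in sham and 154, 123, 176 and 207 in TAC hearts. The highest TAC heart passed the lowest sham heart, and the change was -0.60 ± 0.16 (edgeR quasi-likelihood, adjusted p = 0.0185). It was not called without sham replicate 3 or 4 or without TAC replicate 1, with values over the 8 fits from -0.71 to -0.47. Suclg2 did not overlap, at -0.40 ± 0.08 (adjusted p = 9.08e-04). Suclg1 (-0.11 ± 0.07) and Fh1 (-0.13 ± 0.07) were not called.

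Cytosolic and mitochondrial forms of the same reaction were set side by side. Idh1 had 47.2, 38.3, 51.8 and 47.7 CPM in sham and 36.8, 32.2, 32.3 and 33.6 in TAC hearts, just without overlap, at -0.50 ± 0.09 (edgeR quasi-likelihood, adjusted p = 6.70e-04). Mdh1 had 1634, 1831, 1808 and 1726 CPM in sham and 1297, 1273, 1281 and 1552 in TAC hearts, also without overlap, at -0.42 ± 0.08 (adjusted p = 4.95e-04). Idh2 was at -0.01 ± 0.07 and Mdh2 at -0.03 ± 0.07, neither called. The ratio of Idh2 to Idh1 was higher in all TAC hearts, by 0.48, and that of Mdh2 to Mdh1 by 0.39. Each had a 2-sided p of 0.0286, the smallest that an exact permutation test of 4 against 4 allows, and an adjusted p of 0.0612 over the 15 ratios. Aco1 (-0.02 ± 0.07), Sdha (-0.15 ± 0.16), Pcx (-0.11 ± 0.07) and Me1 (-0.07 ± 0.13) were not called.

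Of the longer list, 22 genes were tested in TAC against sham, with 3 higher and 7 lower. The subunits of the mitochondrial pyruvate carrier went opposite ways. Brp44l (Mpc1) had 126 to 269 CPM in TAC and 49.0 to 100 in sham hearts and was higher by 1.41 ± 0.33 (edgeR quasi-likelihood, adjusted p = 0.0174). Brp44 (Mpc2) was lower by 0.57 ± 0.07 (adjusted p = 2.52e-05). Dhtkd1, of a related 2-oxoacid dehydrogenase, was lower, at 6.32 against 12.4 CPM (adjusted p = 2.95e-04). Lias, which makes the lipoyl groups that Dlat and Dlst carry, was at -0.56 ± 0.19, Me3 at -0.48 ± 0.07 and Got1 at -0.41 ± 0.06. Ldha (0.31 ± 0.07) and Pck2 (0.26 ± 0.09) were the others called higher.

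Markers of cell types and the mitochondrially encoded share moved as well. Cardiomyocyte markers had a median of -0.02, with 4 of 10 higher and 4 lower, and summed to 144685 to 167834 CPM in TAC against 156284 to 184002 in sham hearts. Fibroblast markers summed to 2339 to 4699 CPM against 1097 to 1266, with 4 of 6 higher. Sham replicate 2 held 1.77% mitochondrially encoded counts, within the TAC range of 1.35 to 1.95%, while the other sham hearts held 5.67 to 6.44%. The part of these in the TAC result was not tested.

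The embryonic and TAC comparisons share no library. Of the 31 genes tested in both, 16 (51.6%) were lower in both and the other 15 were lower in embryos and not called in TAC hearts. All 31 were lower in embryos, and among the 5049 features lower in embryos and tested in both, 23.5% were lower in TAC hearts. A missing call is no test of a difference between the comparisons, since Idh3g, at -0.22, was not called and Ogdh, at -0.22, was. The sizes differed between the comparisons. Ogdh and Pdk2, at -3.24 and -3.29 in embryos, were at -0.22 and -0.30 in TAC hearts, whereas Pdp1 and Dld, at -2.18 and -1.85 in embryos, were at -0.74 and -0.69. Pdk4 was not called in TAC hearts and Pdk3 was not tested there.

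**Figure D5:**
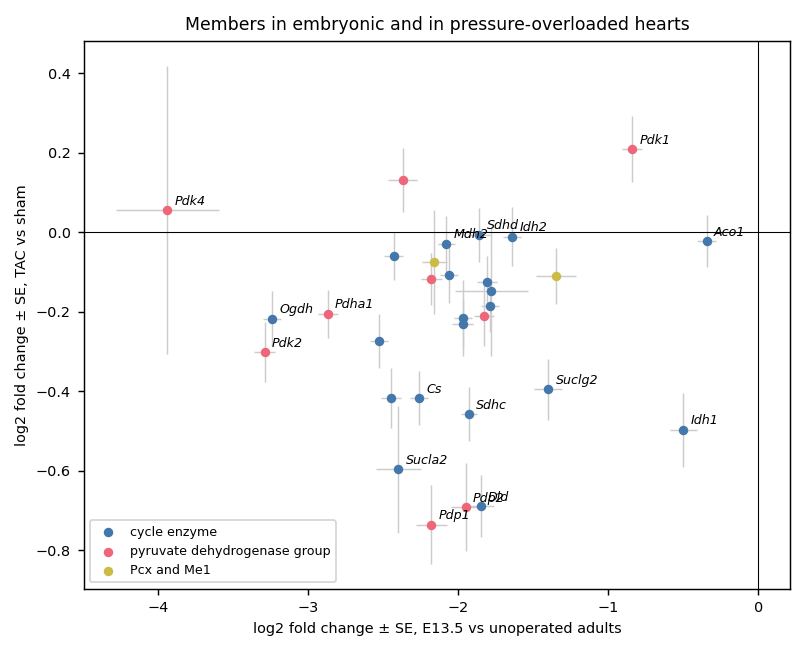
Log2 fold change in TAC against sham hearts (y axis) plotted on that in E13.5 against unoperated adult hearts (x axis) for the 31 genes tested in both; lines are standard errors and colours give the gene's role. All points lie left of 0, and Pdp1, Pdp2, Dld and Sucla2 lie lowest, between -0.74 and -0.60 on the y axis.

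Per kb of own exon, the order of the genes was partly kept between groups. In sham hearts Ogdh was highest at 1175 CPM per kb, followed by Mdh2 (924), Idh2 (881), Cs (742) and Mdh1 (721). Over all exonic bases Idh2 (881) stood above Mdh2 (850) there. In embryos Idh2 led at 344 CPM per kb, before Mdh2 (207), Cs (183), Mdh1 (162) and Ogdh (125). At the low end of the sham hearts stood Pdha2 at 0, Pdk3 at 0.204, Pdp1 at 7.51, Sdha at 10.9 and Aco1 at 12.8 CPM per kb. The Sdha value rests on 40.8% of its exonic bases and may not give its level. Sdhb, Sdhc and Sdhd of the same complex stood at 603, 214 and 374 CPM per kb.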

How the data were processed

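Total counts per feature for 27 libraries were used as deposited. Per the submitters' processing notes, the authors used Bowtie, TopHat 1.3.0, HTSeq, DESeq and edgeR with the mouse build mm9 (NCBIM37). Counting mode, strand setting and filters are not given in the labels or notes, and whether reads that overlap more than 1 feature were dropped bears on Sdha most. The total line was left out. Members, gene lists and motifs were chosen with earlier results of these data known. All 33 members are named for embryos against unoperated adults and for TAC against sham hearts. For the comparison between the unoperated ages, the text names only some of them.

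Each comparison was fitted on its own groups in R 4.3.3 with edgeR 4.0.16 (filter of minimum count 10 and minimum total 15, TMM, robust quasi-likelihood) and Benjamini-Hochberg adjustment over all features tested. Embryos were contrasted with the average of both unoperated ages. DESeq2 1.42.0 was an alternative. Pair ratios are log2 of counts with 0.5 added, compared by 2-sided exact permutation tests. The test was checked on simulated data. Neighbours named are the up to 6 with the largest absolute log2 fold change among those called, plus those called higher, which were chosen after their values were seen. One neighbour that the rule names is not reported here. Nothing says that the libraries came from separate litters, so p-values measure the spread between these samples. Same-numbered libraries did not deviate together. Python 3.11.15 and matplotlib 3.10.9 drew the figures. Promoters are from RefSeq (GRCm38.p6), whose coordinates were not mixed with the mm9 files.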

Additional observations from a re-analysis of the deposited data

Results flagged for a closer look

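For each gene and group the highest and lowest heart was compared with the nearest of the others, by Dixon's 95% limits. Of 163 gene and group combinations with unequal values, 10 had a heart standing apart, and chance flags about 1 in 20 groups. Among sham hearts, Idh3a was lowest in replicate 1 (323 CPM, next 344) and Idh3g in replicate 2 (793 CPM, next 979). Among TAC hearts, Idh3g was highest in replicate 2 (996 CPM, next 800), and Mdh1 (1552 CPM, next 1297) and Pdha2 (0.116 CPM, from 1 read) were highest in the female-labelled mouse. In unoperated hearts, Mdh1 was lowest (1975 CPM, next 2213) and Dlat highest (469 CPM, next 422) in replicate 6 of 6 weeks, and Pdhb was highest (181 CPM, next 158) and Me1 lowest (32.8 CPM, next 38.8) in replicate 2 of 16 weeks. In embryos, Idh3g was highest in replicate 1 (242 CPM, next 216). Without sham replicate 2, or without TAC replicate 2, Idh3g was called lower in TAC hearts by edgeR, with values over all 8 fits from -0.31 to -0.18.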

How the results depend on the processing

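Counts of genes called in the embryonic comparison were 1 higher and 32 lower in all 19 fits that left out 1 library. Pdk3 and Pdha2, whose direction the count filter fixed, are among them. The other 31 genes were called lower in all 19 fits. All features gave 12197 higher with no count filter and 2975 lower with library totals alone. Library totals also gave 2 members higher and turned Aco1 (0.29) and Idh1 (0.14). Without a filter Aco1 was not called (-0.17, adjusted p = 0.0652 by edgeR). Between 16 and 6 weeks, members called lower were 2 with DESeq2, 1 with no filter and 1 with library totals, and members higher were 2 with no filter. All features higher and lower were 219 and 289 with no filter, 230 and 190 with all 27 libraries in 1 fit, and 74 and 64 without the libraries against their sex label. Leaving out 1 library gave 1 to 2 members higher, 0 to 2 lower, 51 to 207 features higher and 56 to 165 lower. In TAC against sham, members higher were 1 (Pdk1) with no filter, with all 27 libraries and without the libraries against their sex label. The last of these fits held only sham replicates 1 and 4 and TAC replicates 1 and 2. Members higher were 0 to 1 when 1 library was left out. Idh3a, Ogdh, Dlst, Pdha1 and Pdhb were not called with no filter or with all 27 libraries in 1 fit. The cause of these moves was not tested. Same-numbered libraries correlated at -0.03 to 0.06 (ages), -0.10 to 0.09 (embryos) and -0.04 to 0.02 (TAC), so numbers do not pair samples. With a replicate block, 1 member was lower at 16 weeks (Sucla2, -0.59 ± 0.12, adjusted p = 0.0216 by edgeR), TAC gave 1767 features lower, and Ogdh, Dlst, Pdha1, Pdhb and Pdk2 were not called on 3 pairs. Pair ratios were rerun only with 2 added to each count and with 1 library left out, and no call changed. With 1 TAC or sham heart left out, the smallest p of the exact permutation test is above 0.05. No TAC ratio could therefore be called in those fits. Unoperated adult libraries held the fewest reads, which limits low genes such as Sdha, Pdk3 and Pdha2.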
